A study of Mus musculus with 4 samples.

Results

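The genes described here code for the proteins that tie a muscle cell to its matrix and to its neighbours: 12 integrin α subunits, 7 integrin β subunits, 9 adaptors and kinases of the focal adhesion, 5 genes of the dystrophin-glycoprotein complex and 6 desmosome genes. They were taken by gene symbol from the array's annotation, which gave 63 probes for these 39 genes, of 55681 probes and 36391 gene names on the array. Tln2 and Dsp are in the list because a report cited by the study found their mRNAs in complexes with FXR1P, an RNA-binding protein. RNA was measured in C2C12 cells, a clonal line of mouse myoblasts, 48 h after transfection with siRNAs against exon 14 of Fxr1 (siFxr1) or with a random-sequence siRNA as control (siControl). Each condition was measured in 2 experiments, numbered in the labels, on 4 one-colour Agilent arrays. All 4 samples are of the same line, so the values describe transient depletion in 1 cell line and not in muscle tissue.

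Integrins are pairs of an α and a β subunit that span the membrane. The α and β subunits together choose the ligand, such as laminin, fibronectin, collagen or vitronectin. The short tail of most β subunits binds talin through an NPxY motif. Talin in turn joins the integrin to actin and recruits vinculin, and in muscle these proteins are concentrated at costameres and myotendinous junctions, beside the dystrophin-glycoprotein complex, which joins laminin to actin by a separate route. Desmosomes link intermediate filaments of neighbouring cells through desmogleins, desmocollins, plakoglobin, plakophilins and desmoplakin, and are known mainly from epithelia and heart.

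The sequences that matter for reading the signals are given first, 5′ to 3′. The siRNA named by the study for exon 14 marks the mRNA that was depleted. The 5 probes were chosen because each crosses an intron (as 7 of the 63 do), so that it lies in spliced coding sequence. The Itgb1 probe covers part of the β1 tail, and capitals mark its 2 stretches that code for NPxY.
siFxr1 exon 14: gcaauccauacagcuuacuugaua
Itgb1 A_66_P113059, mm9 chr8:131250081-131255976 (+): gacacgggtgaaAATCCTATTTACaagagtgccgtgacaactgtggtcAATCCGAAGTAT
Itgb6 A_51_P161054, mm9 chr2:60438632-60443247 (-): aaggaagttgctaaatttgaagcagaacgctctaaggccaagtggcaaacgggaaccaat
Itga4 A_66_P140103, mm9 chr2:79153985-79155115 (+): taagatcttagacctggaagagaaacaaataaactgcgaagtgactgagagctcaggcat
Vcl A_66_P133244, mm9 chr14:21848574-21849035 (+): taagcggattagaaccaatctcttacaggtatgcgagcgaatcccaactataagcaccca
Dsp A_51_P201884, mm9 chr13:38285480-38286579 (+): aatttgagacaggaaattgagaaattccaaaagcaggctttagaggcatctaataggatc

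Signals are given as log2 of the background-corrected intensity after quantile normalization between arrays, and a difference of 1 is 2-fold. A gene was read from its brightest probe, and counted as detected when both siControl arrays or both siFxr1 arrays had that probe well above background. Levels of different probes cannot be set against each other. In bulk RNA, fewer cells that express a gene and less RNA per cell cannot be told apart. Values are listed in the order siControl experiments 1 and 2, then siFxr1 experiments 1 and 2.

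Fxr1 checked the labels. Its probe A_51_P372463 read 13.84 and 13.71 in siControl and 10.15 and 10.77 in siFxr1, a difference of -3.69 in experiment 1 and -2.93 in experiment 2. The other Fxr1 probe, A_55_P2069415, differed by -3.84 and -3.38. Both siFxr1 arrays lay below both siControl arrays at either probe. Between 45.4% and 52.9% of probes were well above background on an array, and 0 spots were saturated. RNA integrity numbers were 8 for siFxr1 of experiment 1 and 9 for the rest. Arrays correlated more within an experiment (0.981 and 0.976) than within a condition (0.961 and 0.965). Experiment here stands for culture, slide and scan together, which cannot be told apart. Of the myoblast markers Myod1, Des, Cdh15 and Pax7 were detected and Myf5 was not. Of 9 epithelial markers 4 were detected, and Cdh1, Epcam, Cldn3, Cldn4 and Krt5 were not. Of 7 leukocyte markers 2 were detected, and Ptprc was not. Of 5 endothelial markers 3 were detected.

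Of the 39 genes, 31 were detected. The other 8 were the collagen receptor subunits Itga1 and Itga2, the subunits Itga8 and Itga9, dystrophin (Dmd) and the desmosome genes Dsp, Dsg2 and Dsc2. Among the 31, 12 were higher in siFxr1 in both experiments (38.7%, against 34.1% of the 19132 detected genes), 8 were lower in both (25.8%, against 29.9%) and 11 went opposite ways. These shares were near those of all genes. In both experiments 1 gene, Itga4, was at least 2-fold higher (2.11% of all detected genes were). Itga4 was not well above background in siControl and was detected through siFxr1 alone, so it had to differ. At least 2-fold lower in both were 0 (1.48% of all detected genes were). The median log2 difference was 0.11 for the 31 genes and 0.03 for all detected genes.

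**Figure D1:**
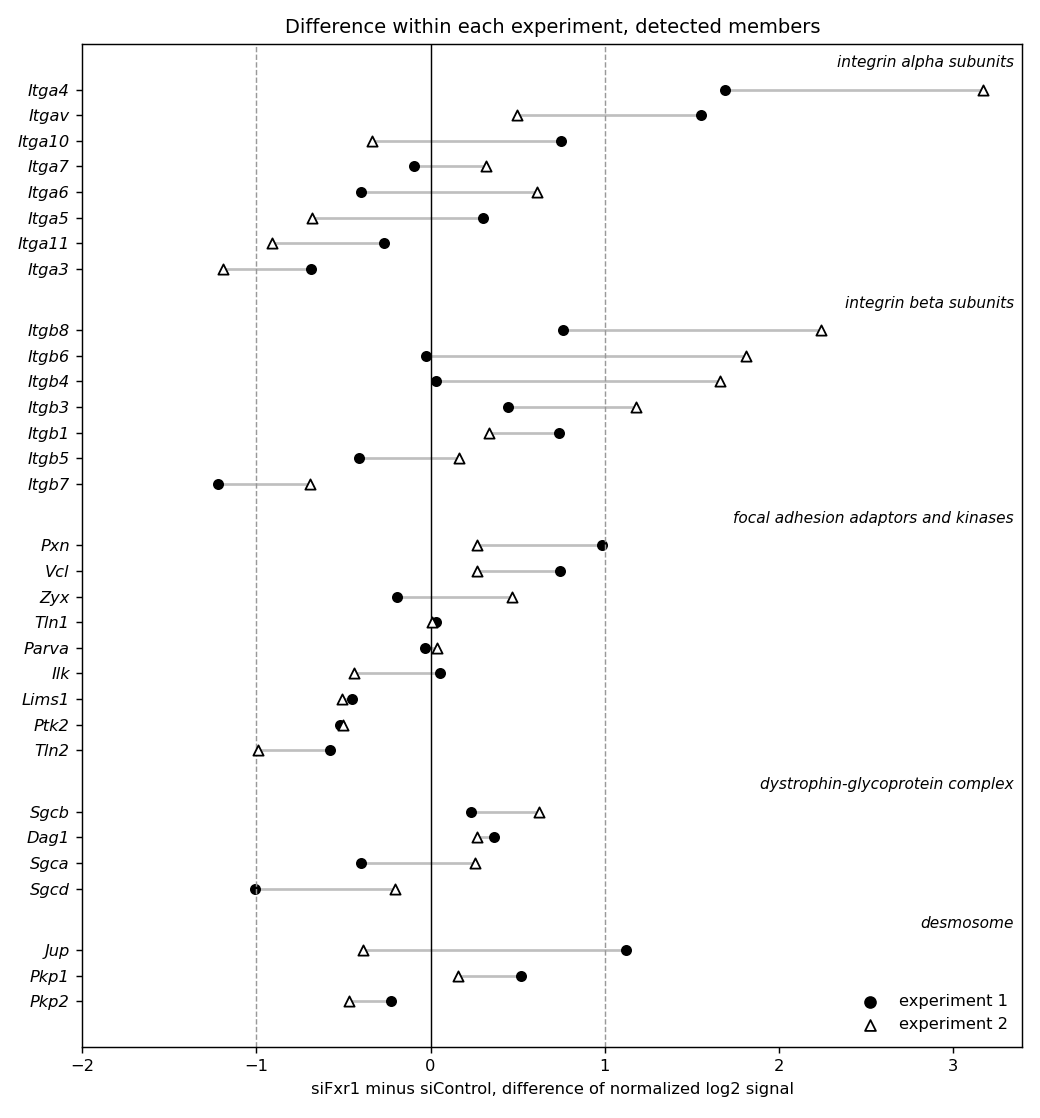
Difference of normalized log2 signal, siFxr1 minus siControl, on the x axis for the 31 detected genes, ordered by their mean within each group on the y axis. Filled circles are experiment 1 and open triangles experiment 2, each from 1 pair of arrays, and dashed lines mark 2-fold. Itga4 is drawn past 2-fold in both experiments, at 1.69 and 3.17, but its siControl signals were not well above background, so these differences are not fully measured. Jup, at 1.12 and -0.39, is among the 11 genes whose experiments lie on opposite sides of 0.

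The test across all probes called none of these genes. limma without a block gave a B value, the log odds of change, above 0 for 0 of the 63 probes (0% of 55681) and an adjusted p under 0.05 for 0 (0%), and the lowest adjusted p among the 63 was 0.950. Fxr1 itself, at an adjusted p of 0.950, was not called by limma in that fit. At an unadjusted p under 0.05 it gave 3 of the 63 probes, against 4.96% of all probes: a dim Dmd probe, the brightest Itga4 probe and the second Itgb3 probe. Limma with the experiment as a block gave 0 probes with B above 0 (0%) and 9 of 63 at an unadjusted p under 0.05 (8.85% of all). With the block and only the 25540 probes above background, limma called 1 of 45 (1.39% of all), the brightest Itga4 probe, at a B of 0.16 and an adjusted p of 0.0554. That probe entered this fit through siFxr1 alone, where it is high, so the call is no independent support. With the 4 possible ratios taken as observations, limma called 1 of 63 (1.99% of all), the dim Dmd probe described below. Each array enters 2 of these ratios, so they are not independent and this fit overstates B. The differences that follow are thus values for 2 pairs of arrays. Each SE beside a mean is from limma with no block, so it takes in the difference between experiments. With the block the SE was 0.36 for Itgav and 0.55 for Itgb6, both smaller, and 0.19 for Dag1, which was larger. The labels give the experiment and the slide of each sample, the methods call the replicates biological, and the p-values measure the spread between these samples.

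Among the α subunits, 2 of the 8 detected genes were higher in both experiments (25%, against 34.1% of all detected genes). Lower in both were 2 (25%, against 29.9%), 4 went opposite ways, and the median difference was 0.11. Itga4 codes for α4, a receptor for VCAM-1 and fibronectin. Its brightest probe, at mm9 chr2:79173193-79173252 on the plus strand, read 3.95 and 2.68 in siControl and 5.64 and 5.85 in siFxr1. The groups did not overlap, and the siControl arrays were not well above background. The mean difference was 2.43 (SE 0.52, n = 2 per condition). With the background correction used here siControl gives only a bound, and by it Itga4 was at least 2.26-fold higher in siFxr1. This sets the siFxr1 mean against the lowest signal well above background on the siControl arrays. The gene passed the filter through siFxr1 alone, so it had to differ. The 2.26-fold bound did not hold in other settings, as the mean difference was 0.58 with normexp background correction and 0.50 without background subtraction. The other Itga4 probe, in the spliced coding sequence printed above, was not well above background on any of the 4 arrays and differed by 1.31 and -0.02.

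Itgav, which codes for αv, the partner of β1, β3, β5, β6 and β8 in receptors for RGD ligands, read 9.06 and 11.04 in siControl and 10.62 and 11.53 in siFxr1. The groups overlapped because the experiments differed, while within each experiment siFxr1 was higher, by 1.55 and 0.49 (mean 1.02, SE 0.86). Without siControl of experiment 1 the mean difference was 0.04, in a fit with no block that takes in part of the difference between experiments. The second Itgav probe was higher by 1.23 and 0.74.

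Itga3, a laminin receptor subunit, had the lowest mean difference of the α subunits: it read 9.62 and 10.70 in siControl and 8.93 and 9.51 in siFxr1. Both siFxr1 arrays lay below both siControl arrays, by -0.69 and -1.19 within experiments (mean -0.94, SE 0.50). Itga11, the α chain of a collagen receptor, read 11.18 and 10.35 in siControl and 10.91 and 9.44 in siFxr1. Its groups overlapped, and its mean difference of -0.59 (SE 0.68) turned to 0.14 without siFxr1 of experiment 2. That fit had no block and took in part of the difference between experiments. Itga7, the main laminin-binding α subunit of skeletal muscle, read 15.65 and 15.35 in siControl and 15.55 and 15.67 in siFxr1. Its differences of -0.10 and 0.32 had opposite signs and the groups overlapped. Itga5, Itga6 and Itga10 also went opposite ways, with mean differences of -0.19, 0.11 and 0.21. The second Itga10 probe differed by -0.89 and -0.50.

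The β subunits held 4 of 7 genes higher in both experiments (57.1%, against 34.1% of all detected genes), 1 lower in both (14.3%, against 29.9%) and 2 opposite. The median difference was 0.81, which is from 7 genes and was 0.03 over experiment 1 and 1.18 over experiment 2. Itgb8, a partner of αv, read 6.74 and 5.13 in siControl and 7.50 and 7.37 in siFxr1. Both siFxr1 arrays were above both siControl arrays, by 0.76 and 2.24 within experiments (mean 1.50, SE 0.65). Without background subtraction this mean was 0.68. Itgb3, the β chain of the αvβ3 vitronectin receptor, read 12.19 and 12.09 in siControl and 12.64 and 13.27 in siFxr1. Its groups did not overlap either, with differences of 0.45 and 1.18 (mean 0.81, SE 0.29), and the second probe gave 0.58 and 1.18.

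Itgb4, the β chain of the hemidesmosome integrin, read 7.91 and 7.98 in siControl and 7.94 and 9.64 in siFxr1. The groups overlapped, and the mean difference of 0.85 (SE 0.68) came from experiment 2, where it was 1.66, against 0.03 in experiment 1. Itgb1, the β subunit shared by most laminin, collagen and fibronectin receptors, read 13.22 and 13.79 in siControl and 13.95 and 14.12 in siFxr1 at the tail probe printed above. Both siFxr1 arrays were the higher ones, by 0.74 and 0.33 (mean 0.53, SE 0.28), and the other probe differed by 0.41 and 0.38. Itgb7, a partner of α4, was the 1 β subunit lower in both experiments: it read 11.51 and 12.37 in siControl and 10.29 and 11.67 in siFxr1. The groups overlapped, since siFxr1 of experiment 2 exceeded siControl of experiment 1, and the differences were -1.22 and -0.69 (mean -0.96, SE 0.65). Itga4, the partner of Itgb7, passed the filter through siFxr1 alone, so their opposite signs are no result about the pair. Itgb5 and Itgb6 went opposite ways between the experiments.

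**Figure D2:**
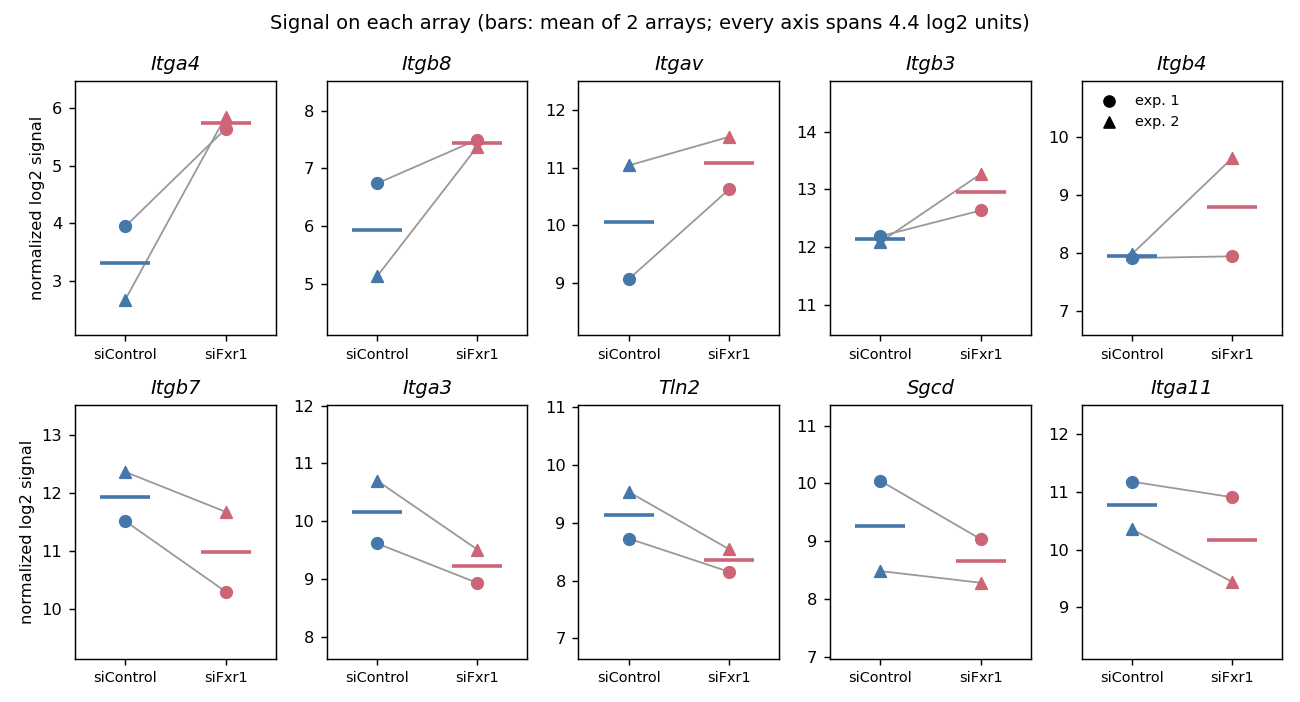
Normalized log2 signal on each of the 4 arrays for the 5 genes with the largest mean difference upward (top row) and the 5 with the largest downward (bottom row) among detected genes that moved the same way in both experiments. Circles are experiment 1, triangles experiment 2, grey lines join arrays of an experiment, bars are means of 2 arrays, and every y axis spans 4.4 log2 units. Itga4, Itgb8, Itgb3, Itga3 and Tln2 have no overlap between conditions, though the siControl signals of Itga4 were not well above background. Itgb4 rests on 9.64 in siFxr1 of experiment 2, and it overlaps between conditions as Itgav, Itgb7, Sgcd and Itga11 do.

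Of the 9 focal adhesion genes, all detected, 3 were higher in both experiments (Pxn, Vcl and Tln1), 3 were lower in both (Tln2, Ptk2 and Lims1) and 3 were opposite. These shares of 33.3% stand against 34.1% of all detected genes higher and 29.9% lower, and the median was 0.00281. Tln2, the talin isoform abundant in muscle and brain, had the lowest mean difference of the group. It read 8.73 and 9.54 in siControl and 8.16 and 8.55 in siFxr1 at mm9 chr9:67064950-67065009. Both siFxr1 arrays lay below both siControl arrays, by -0.58 and -0.99 within experiments (mean -0.78, SE 0.38). The adjusted p of Tln2 was 0.551 by limma with the block and 0.179 with the block and the filter. The second Tln2 probe, well above background on 1 array of each condition, differed by -0.28 and -1.20. Tln1, the widely expressed talin, read 14.86 and 15.99 in siControl and 14.89 and 16.00 in siFxr1. Its differences were 0.03 and 0.01, and the sign of their mean turned under other background corrections (-0.11 with normexp), so no direction is given to it. The counts by sign still include Tln1 among the genes higher in both experiments.

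Ptk2, which codes for focal adhesion kinase, read 11.92 and 11.72 in siControl and 11.40 and 11.22 in siFxr1. Its groups did not overlap, and the differences of -0.52 and -0.50 were nearly equal in the experiments. The second detected Ptk2 probe differed by -0.59 and -0.18. Lims1, which codes for PINCH1, a partner of integrin-linked kinase, differed by -0.45 and -0.51, and its second probe by -0.26 and -0.90.

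Vcl, which codes for vinculin, differed by 0.74 and 0.27 at its brightest probe and by 0.59 and 0.33 at the spliced probe printed above. Pxn, the adaptor paxillin, differed by 0.98 and 0.27. Ilk (mean -0.19), Zyx (mean 0.14) and Parva (mean 0.00281), which code for integrin-linked kinase, zyxin and α-parvin, went opposite ways between the experiments, though both other Parva probes were lower in both experiments, by means of -0.54 and -0.25. Over all the genes, 12 had 2 or 3 detected probes, and in 9 of them the probes gave mean differences of 1 sign. The exceptions were Itga10, Parva and Tln1. The 2 Itga10 probes overlap, at mm9 chr3:96468377-96468436 and chr3:96468383-96468442, and still differed by 0.75 and -0.89 in experiment 1. Probes of nearly the same sequence can thus disagree by more than many differences given here.

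**Figure D3:**
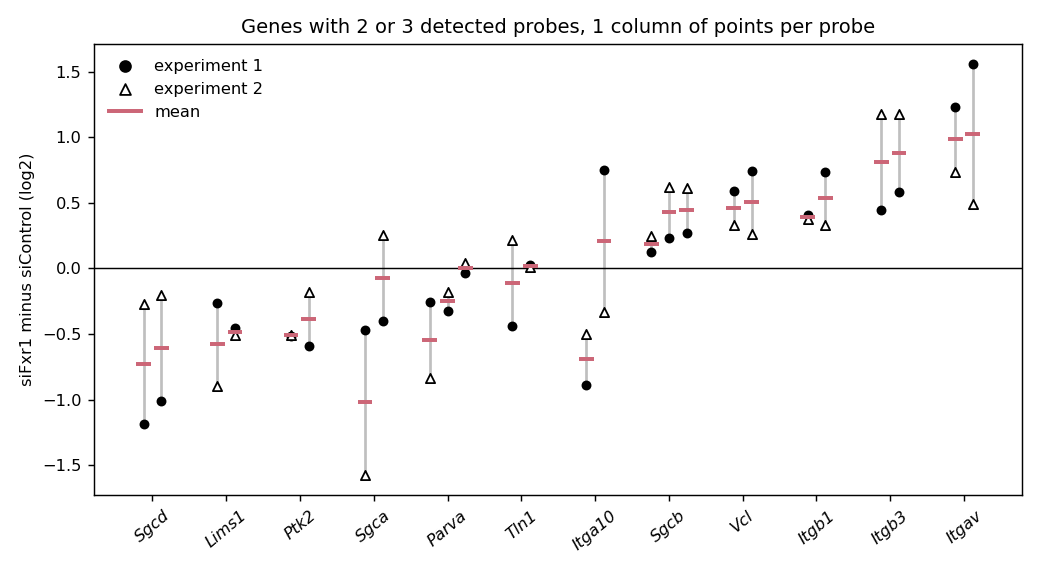
Log2 difference, siFxr1 minus siControl, on the y axis at every detected probe of the 12 genes on the x axis that have 2 or 3 such probes. Circles are experiment 1, triangles experiment 2 and red bars their mean. The 2 Itgav probes have means of 0.98 and 1.02 and the 2 Itgb3 probes 0.81 and 0.88, while those of Itga10 lie at -0.69 and 0.21.

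In the dystrophin-glycoprotein complex 4 of 5 genes were detected. Dag1, which codes for both subunits of dystroglycan, the laminin receptor of the complex, read 12.25 and 12.42 in siControl and 12.62 and 12.69 in siFxr1. Both siFxr1 arrays were above both siControl arrays, by 0.36 and 0.27 (mean 0.32, SE 0.16). Sgcd, δ-sarcoglycan, read 10.04 and 8.48 in siControl and 9.03 and 8.28 in siFxr1. Its conditions overlapped, the differences were -1.01 and -0.20 (mean -0.61, SE 0.70), and the second probe gave -1.18 and -0.27.

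Sgcb, β-sarcoglycan, read 13.81 and 12.52 in siControl and 14.04 and 13.14 in siFxr1, with overlapping conditions and differences of 0.24 and 0.62. Its 2 other probes were also higher in both experiments. Sgca, α-sarcoglycan, read 13.52 and 11.44 in siControl and 13.12 and 11.69 in siFxr1, with differences of -0.40 and 0.26, while its second probe differed by -0.47 and -1.57. No probe of Dmd was detected. Its brightest, A_55_P2167913, read 4.00 and 4.03 in siControl and 2.62 and 2.80 in siFxr1, none well above background, so no fold is given. It is this probe that the fit of 4 ratios called, at a B of 2.92, which is overstated because the ratios share arrays. Of the other 3 Dmd probes, 2 read between 2.63 and 3.50 on all arrays. The last read 4.49 in siControl of experiment 1, where it was well above background, and 2.71 or less elsewhere.

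Desmosome genes were detected in part, 3 of 6. Dsp, desmoplakin, the other mRNA reported in FXR1P complexes, read 2.98, 2.86, 2.78 and 2.81 at the spliced probe printed above and between 2.80 and 2.84 at the other. Both Dsp probes were not well above background on any of the 4 arrays, so a difference in Dsp was not detectable here. Jup, plakoglobin, which cells also use at classical cadherin junctions, read 5.83 and 7.45 in siControl and 6.95 and 7.06 in siFxr1. Its differences of 1.12 and -0.39 had opposite signs, with siFxr1 lying between the siControl arrays. Pkp1 and Pkp2, plakophilins, differed by 0.52 and 0.16 and by -0.23 and -0.47.

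The 31 genes were also compared between the experiments. In 18 of the 31 the mean difference between experiments exceeded that between conditions, and the median absolute differences were 0.56 and 0.48 (0.43 and 0.28 over all detected genes). Itgb6, which codes for β6, the β chain of an αv receptor for fibronectin and latent TGF-β, stood out. It read 9.58 and 9.55 in siControl and siFxr1 of experiment 1, and 5.15 and 6.96 in those of experiment 2. The experiment 1 arrays were both above the experiment 2 arrays, by a mean of 3.51. The second Itgb6 probe was not well above background on any array.

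Sgca was higher in experiment 1 by 1.75 on average, and Itgb6 and Sgca were the 2 genes at least 2-fold higher there in both conditions, against 5% of all detected genes. Tln1 was the 1 gene at least 2-fold lower in experiment 1 in both conditions (5.03% of all), with a mean difference of -1.12 at its bright probe. The second Tln1 probe read 7.73 and 7.30 in experiment 1 and 7.33 and 7.54 in experiment 2, and did not separate the experiments.

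limma with condition and experiment as terms called 0 of the 31 between experiments at an adjusted p under 0.05 over all 55681 probes (0% of all detected genes higher and 0% lower), with 9 of the 31 and 5059 of all detected genes at an unadjusted p under 0.05. When dim probes were left out of the limma fit, it called 8 of the 31, at adjusted p from 0.00796 to 0.0430. The 5 higher in experiment 1 (8% of all detected genes were) were Itgb6, Sgca, Sgcd (1.16), Itga11 (1.14) and Sgcb (1.10). The 3 lower in experiment 1 (7.67% of all) were Itgav (-1.44), Tln1 and Itgb7 (-1.12). Next in size were Itgb4 (-0.89) and Jup (-0.87), which were not called. The 3 detected sarcoglycan genes were thus all among those higher in experiment 1 at their brightest probes. The second Sgca probe, A_55_P2007384, did not show this in siControl, where it read 12.32 and 12.40 in experiments 1 and 2, against 11.85 and 10.83 in siFxr1, a mean difference between experiments of 0.47.

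**Figure D4:**
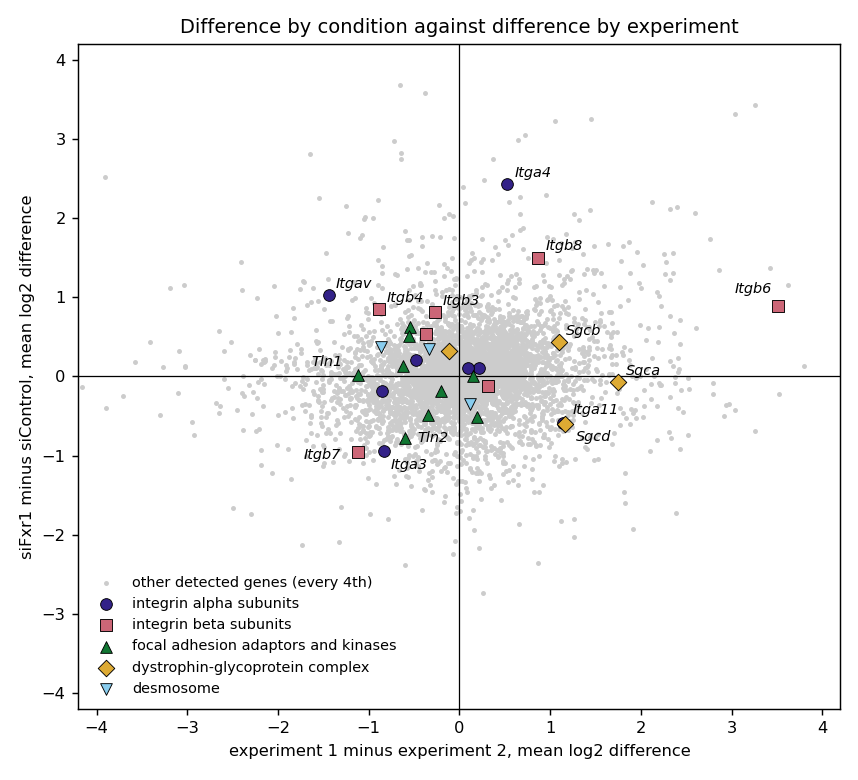
Mean log2 difference between conditions (siFxr1 minus siControl, y axis) against that between experiments (experiment 1 minus experiment 2, x axis) for the 31 genes, with 1 in 4 of the other detected genes in grey (4 grey points lie outside the axes). Both differences come from the same 4 arrays. Itgb6 lies farthest along the x axis, at 3.51, and Itga4, whose siControl arrays were not well above background so that its height is not fully measured, is drawn at 2.43, while Sgca, Sgcb, Sgcd and Itga11 lie to the right of 1.

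Differentiated muscle markers moved with the experiment. Of 11 detected, among them Myog, Acta1, Ckm and Tnnt3, 10 were at least 2-fold higher in experiment 1 in both conditions, with a median of 2.12, and their mean level was 14.04 and 14.08 on the arrays of experiment 1 against 12.00 and 11.71 on those of experiment 2. The array lists the fusion gene Mymk under its older symbol, Tmem8c. The part of differentiated cells in the higher Itgb6 and sarcoglycan signals was not tested. Between conditions the same markers had a median difference of -0.10. The 4 detected of 9 epithelial markers, none of them Cdh1 or Epcam, averaged 7.37 and 6.67 in siControl and 7.64 and 7.39 in siFxr1. In both experiments 2 of them were higher and 2 lower in siFxr1. The 2 detected leukocyte markers averaged 8.46, 8.04, 8.44 and 8.20 on the 4 arrays in the same order, and the 3 detected endothelial markers 7.43, 7.97, 7.82 and 8.26. Their part in the results was not tested.

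Other genes of these pathways, listed by their function, give the surroundings. Of 18 ligands, mostly laminin chains and RGD proteins, 17 were found on the array by symbol and 16 were detected. In both experiments siFxr1 was the higher condition for 9 of them (56.25%, against 34.1% of all detected genes) and the lower for 2 (12.5%, against 29.9%). The median was 0.27. Tnc, which codes for tenascin-C, a ligand of αv and α9 integrins, read 5.13 and 4.67 in siControl and 7.01 and 8.07 in siFxr1. It passed the filter through siFxr1 alone, as neither siControl array was well above background. Both siControl signals exceeded the lowest signal well above background on their arrays, so by the rule given for Itga4 they were used themselves. By that rule the fold of Tnc was 6.24 with this background correction, against siControl signals that were not well above background. Spp1, osteopontin, which αvβ3 and α4 integrins bind, read 14.60 and 15.80 in siControl and 15.77 and 17.01 in siFxr1. Within experiments it was higher by 1.18 and 1.20, although siFxr1 of experiment 1 was just below siControl of experiment 2.

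Of all detected genes 34.1% were higher and 29.9% lower in both experiments, and the shares below stand against these. Of 26 further dystrophin complex and costamere genes 24 were detected. In both experiments 1 was higher (4.17%) and 10 were lower (41.7%), with a median of -0.20. Of 28 further focal adhesion genes 24 were detected, 8 higher (33.3%) and 6 lower (25%), near the shares of all genes. Of 20 further junction genes 11 were detected, 5 higher (45.5%) and 1 lower (9.09%). The largest of these was the keratin Krt18, a simple-epithelium filament protein, at 6.09 and 2.85 in siControl and 7.71 and 5.22 in siFxr1. It was well above background on both siFxr1 arrays and on 1 siControl array, so it passed the filter through siFxr1 alone. Within experiment 1 Krt18 was higher by 1.62. The difference of 2.38 in experiment 2 is against a siControl signal not well above background, and siFxr1 of experiment 2 was below siControl of experiment 1. Of 8 platelet and leukocyte integrins 3 were detected, 1 higher (33.3%) and 0 lower (0%). By limma with no block 0 genes of these 5 lists had B above 0, and 2 of them, Krt8 and Tnc, were at an unadjusted p under 0.05 (1321 of the 19132 detected genes were). With the block and the filter limma called Krt18 (B 0.81) and Tnc (B 0.54), beside 252 of all detected genes. Both passed that filter through siFxr1 alone, so these calls are no independent support. With 4 ratios limma called Krt8 (B 0.06) and Tnc (B 0.40), beside 507. Those ratios share arrays, so these B values are overstated. Krt8, a partner of Krt18 in filaments, was named after its values were seen.

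RefSeq promoter sequence (GRCm38.p6) was found for 27 of the 39 genes. In the 250 bases before the start, on both strands, the GC box GGGCGG was in 15 of the 27 (55.6%, against 35.4% of 27025 genes), the E-box CANNTG in 18 (66.7% against 69.3%) and the AP-1 motif TGANTCA in 2 (7.41% against 7.82%). The CArG box, the motif of serum response factor, was in 3 (11.1% against 1.62%), and these were Dmd, Itgb6 and Vcl. The stretches around it are printed because Itgb6 and Vcl lie at different places in the comparisons above, with capitals for the box.
Itgb6, GRCm38.p6 chr2:60673709-60673768 (-): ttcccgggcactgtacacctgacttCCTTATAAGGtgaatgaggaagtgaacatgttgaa
Vcl, GRCm38.p6 chr14:20929148-20929205 (+): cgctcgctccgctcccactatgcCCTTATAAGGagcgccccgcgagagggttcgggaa
Dmd, GRCm38.p6 chrX:82948747-82948806 (+): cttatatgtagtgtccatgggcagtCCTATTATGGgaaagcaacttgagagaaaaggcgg
A gene was counted when any of its listed starts had the motif. Itgb6 and Dmd each have another listed start, with no CArG box before it. Itgb6 and Vcl hold the same 10 letters, 50 and 227 bases before the start concerned. Their signals did not move alike: Itgb6 differed between the experiments by 3.51 and Vcl by -0.56, and between conditions by means of 0.89 (SE 2.02) and 0.50 (SE 0.37). These matches are descriptions of the window and not of binding. No promoter sequence was matched for Itga6, Itga7, Itgb3, Itgb4, Tln2, Pxn, Ptk2, Parva, Pkp1, Pkp2, Dsg2 and Dsc2.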

How the data were processed

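Total RNA of C2C12 myoblasts, 2 siFxr1 and 2 siControl samples, was labelled with Cy3 and hybridised to Agilent mouse arrays. Samples were assigned by their labels. The authors deposited the spot intensities of Agilent Feature Extraction 10.7.3.1, background-corrected within the array and not normalized between arrays. A table of normalized intensities was deposited as well. It ranks spots as the raw median intensity does (rho 1), has medians of 119.25 to 119.625, so was taken as linear and without background subtraction, and served only as an alternative.

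The background-corrected intensities deposited by the authors were taken to log2 and quantile-normalized over 59305 non-control spots in R 4.3.3 with limma 3.58.1. Outlier spots (145 to 177 an array) were then set to missing and spots of a probe averaged. The Itga1 probe A_52_P459929 lacks siFxr1 of experiment 2 for this reason. Conditions were compared by lmFit and eBayes with no block, over all 55681 probes, with calls at B above 0 or Benjamini-Hochberg adjusted p under 0.05, and differences were also taken within each experiment. The software's flag, on a share of 0.5 or more of a probe's spots, defined a signal well above background. The number of arrays limits the precision. Probe positions are those of the array's annotation (mm9).

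Labels number the experiments, and deviations of same-numbered samples from the condition means correlated at 0.714, so the numbers were taken to pair the samples. The fit with a block was an alternative, as were 75th percentile scaling, normexp with offset 50, no background correction, a filter on dim probes, 4 ratios as observations, the mean of a gene's probes and leaving out each array.

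The members and lists were chosen with earlier results of these data known. Array values are given for Tln2, Dsp, Tln1, Itgb1, Itga7, Dmd, Dag1 and Jup, for detected members at least 2-fold changed the same way in both experiments, for the 5 largest mean differences each way among those of 1 direction, and for the 5 largest experiment differences each way. Of the other lists, up to 2 genes each way at least 2-fold changed in both experiments are named. Values of Ptk2 were added after they were seen.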

Additional observations from a re-analysis of the deposited data

How the results depend on the processing

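With the experiment as a replicate block and dim probes left out, 354 probes had B above 0. Among them was 1 of the genes described, Itga4, which passed the filter through siFxr1 alone. With 4 ratios as observations, which share arrays and overstate B, 1107 probes had B above 0, among them 1 (Dmd). The replicate block alone left both counts at 0. Itga4 was no longer 2-fold in both experiments under normexp, with no background correction or in the authors' table, where 0 genes were. Scaling to the 75th percentile gave a median of 0.22 in place of 0.11, beside 0.08 for all genes. Genes called between experiments numbered 4 with that scaling, 7 with normexp, 8 with no background correction, 8 in the authors' table and 8 with the filter. The sign of the mean difference, not of each experiment, was compared between settings. The block, the filter on dim probes and the 4 ratios leave that mean unchanged, so they could not turn its sign. Under the other settings that used all 4 arrays, 19 of the 20 genes with 1 direction in both experiments kept the sign. The exception was Tln1, at -0.11 with normexp, -0.15 with no background correction, -0.16 in the authors' table and -0.046 over the mean of its probes, and from -0.55 to 0.58 with 1 array left out. Leaving out 1 array also turned Itga11 (from -1.32 to 0.14), Itgb4 (from -0.00351 to 1.70), Sgcb (from -0.22 to 1.07, with -0.02 without siFxr1 of experiment 1) and Sgcd (from -1.39 to 0.18). These fits had no block, so leaving out 1 array lets part of the difference between experiments into the mean. A turned sign here is thus not a disagreement between experiments, as each of these genes had 1 sign in both. How much of each turn this makes up was not tested. Differences of dim signals such as Itga4 (0.58) and Itgb8 (0.74) were smaller with normexp, and with 2 arrays per condition the spread between cultures is poorly known.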
